A study of Mus musculus with 3 samples.

Results

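The MYC, MAX and MXD network is a set of basic helix-loop-helix leucine zipper (bHLHZ) transcription factors that compete for 1 shared partner. MYC proteins pair with MAX, bind the E-box CACGTG and recruit coactivators to genes of growth and proliferation, whereas MXD proteins and MNT pair with the same MAX, bind the same site and recruit the SIN3 corepressor with its histone deacetylases. MGA also pairs with MAX, as a subunit of a Polycomb repressive complex (PRC1.6). In hematopoiesis MYC is known for driving the expansion of progenitors, and MXD genes are known for rising as myeloid cells leave the cycle and mature. The network was examined in TBLR1-RARα (TR) leukemia of the mouse through 10 genes, taken by symbol and matched by NCBI Gene ID: the MYC family (Myc, Mycn, Mycl), Max, the MXD family (Mxd1, Mxd3, Mxd4, Mxi1), Mnt and Mga. They are 10 of the 16742 genes listed in any library.

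RNA-seq was available from 3 libraries, 1 for each group. The control library held lin- bone marrow cells, the cells left after depletion of those with mature lineage markers, from 3 pooled wild type C57BL/6 mice aged 6 to 8 weeks. The TR1 and TR9 libraries held GFP+ bone marrow cells of C57BL/6 mice of the same stated age and of the genotype TBLR1-RARa, with 3 mice pooled in each. In these mice donor lin- cells had received an MSCV retrovirus that expresses TR and GFP from the same transcript, and the cells sequenced came from the third generation of serial transplantation. TR is a fusion of the retinoic acid receptor RARα found in acute promyelocytic leukemia. TR1 and TR9 are each named after 1 primary leukemic mouse, so the 3 mice of a line share that origin and are not separate leukemias. Control cells were obtained from healthy mice by lineage depletion. TR cells were obtained by sorting for GFP after retroviral transduction and serial transplantation. These differences cannot be told apart from the genotype.

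Expected counts, which RSEM estimates for each gene, summed to between 5129662 and 5571409 per library, and 14642 to 15302 genes were listed. Values are given as FPKM, fragments corrected for transcript length and sequencing total, so levels of different genes can be set side by side. A gene was called upregulated or downregulated between 2 libraries at a false discovery rate of at most 0.001 in a conditional exact Poisson test and an absolute log2 FPKM ratio of at least 1. With 1 library per group there was no replicate check: the test compares the reads of libraries, not conditions, and every interval below is a 95% exact interval for counting error only. The libraries differed widely in cell composition. All 10 erythroid and all 8 megakaryocyte markers were downregulated in both lines, their summed FPKM going from 2297 in control to 8.83 (TR1) and 13.6 (TR9) and from 950 to 3.31 and 2.32, with Hba-a2 and Alas2, and Pf4 and Gp6, at 0 in both lines. All 8 late granulocyte markers were upregulated, from a summed 86.1 FPKM to 23226 in TR1 and 9045 in TR9, led by S100a9 in TR1 and Ngp in TR9, and the 4 primary granule markers, led by Mpo in control and Elane in both lines, summed to 4100, 20452 and 23289 FPKM, 4 of 4 upregulated in TR1 and 3 in TR9. Mast cell, basophil and eosinophil markers, led by Prg2 in control, summed to 1104, 74.8 and 86.3, and B lineage markers, led by Cd79b in control and Igll1 in both lines, summed to 12.4, 16.7 and 199.8, with Cd79a and Cd79b at 0 in both lines and Igll1, at 0.43, 13.3 and 194.53 FPKM, upregulated in both. Stroma markers, led by Col1a1 in control and Vcam1 in both lines, summed to 527, 168 and 299 FPKM. Of these 5, 4 were downregulated in both lines and Vcam1 was upregulated in both. Monocyte and macrophage markers summed to 76.4, 181 and 71.1, with 4 of 6 downregulated in both lines and Cd68 upregulated in both. T and NK markers, led by Nkg7 in each library, summed to 98.8, 197 and 158. In bulk RNA a change in the share of cells that express a gene and a change in its RNA per cell cannot be told apart.

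Myc was the most abundant member in every library. It is carried on chr15:61985391-61990374 (+), and it had 149.85 FPKM in control, 198.65 in TR1 and 179.36 in TR9, estimated from 1975, 2665 and 2212 expected counts. That placed it at rank 425 of 15302 listed genes in control, 296 of 14642 in TR1 and 323 of 14817 in TR9. Both TR libraries were above control, TR1 more so. TR1 had a log2 ratio to control of 0.41 (interval 0.32 to 0.49) and TR9 one of 0.26 (0.17 to 0.35), so the counting error was small beside the difference but the ratio stayed well under the 2-fold required for a call. Of the genes with more than 3 counts in both libraries, 22.8% had a larger ratio than Myc in TR1 and 33.0% in TR9. Directly compared, TR9 was lower than TR1 by a log2 ratio of −0.15 (−0.23 to −0.07).

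The paralogs Mycn and Mycl were listed in control only. Mycn, on chr12:12936093-12941914 (−), encodes N-MYC, which is known for its role beside MYC in hematopoietic stem cells. It had 3.01 FPKM and 43 counts in control and was not listed in TR1 or TR9, taken here as 0 counts. Against a floor of 3 counts the reduction was 14.5-fold in TR1 and 13.4-fold in TR9, values that are not lower confidence limits. Mycn was downregulated in both. Mycl, on chr4:122995652-123002485 (+), encodes L-MYC, a factor of dendritic cells in the blood system. Mycl had 9 counts and 0.46 FPKM in control and none in either line. Against the same floor Mycl was lower by 3.05-fold in TR1 and 2.80-fold in TR9. Neither difference passed the false discovery rate (0.00803 and 0.0118 in the exact test). Myc therefore made up 97.7% of the summed FPKM of the MYC family in control and 100% in both lines. In sum the family had 153.32 FPKM in the control library, 198.65 in TR1 and 179.36 in TR9. The summed FPKM of the 8 stem and progenitor markers was also lower in the lines, at 194 in control, 73.9 in TR1 and 75.7 in TR9, led by Cd34, Flt3 and Kit respectively. Not every marker moved this way, and the lines differed. In TR1 6 were downregulated, among them Kit (73.49 FPKM in control to 29.13), and Flt3 was upregulated (16.16 to 38.44 FPKM). In TR9 4 were downregulated, among them Flt3 (16.16 to 6.65 FPKM), while Kit, at 62.55 FPKM, was not called. Hoxa9 was at 0 in both lines. Their part in the result was not tested.

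**Figure D1:**
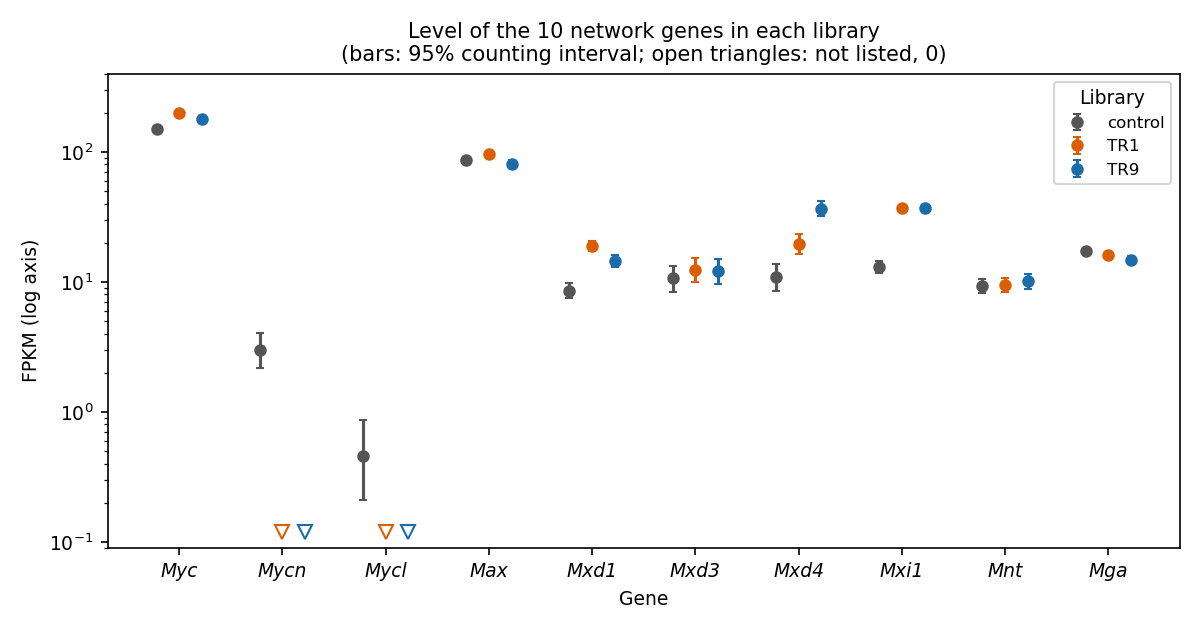
FPKM of the 10 network genes (log axis) in the control, TR1 and TR9 libraries, with 95% counting intervals; open triangles stand for genes not listed. Myc and Max lie far above the other members in all libraries, Mxd1, Mxd4 and Mxi1 lie higher in both TR libraries than in control, and Mycn and Mycl are listed in control alone.

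Max, the obligate partner of the network, was the second most abundant member in each library. It lies on chr12:76937269-76962201 (−), and its level was 85.77 FPKM in control, 95.54 in TR1 and 80.52 in TR9, from 934, 1059 and 820 counts. The library values differed little. The log2 ratio was 0.16 (0.03 to 0.28) in TR1, −0.09 (−0.23 to 0.05) in TR9 and −0.25 (−0.38 to −0.11) for TR9 against TR1, and none was called. The sign against control depended on how libraries were scaled: in TR1 it turned to −0.07 when FPKM were rescaled to the same sum (TPM scaling), and in TR9 it turned to 0.02 with edgeR's TMM.

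The members called upregulated in either line were all of the MXD family, and Mxd3 of that family was not called. To show the regulatory sequence of the genes described next, promoter sequences of 250 bases before to 50 after each start were taken from RefSeq (GRCm38.p6), where 9 of the 10 members matched, with 11 promoters. The member without a promoter there was Myc, so the motif counts below do not cover it. The E-box CACGTG, which is its own reverse complement, was found in 3 of the 11, those of Max, Mnt and Mxd4, against 7.15% of all 32851 promoters. The hexamer AGGTCA (or TGACCT on the other strand), the unit that retinoic acid receptors bind, was in 0 of the 11 and in 16.3% of all promoters. Member promoters were rich in G and C, 56% to 76.7% against a median of 52.7% over all promoters, and motif shares of such sequences are not matched for this. The following 100-base windows show the E-box in capitals, in 5′ to 3′ direction of the gene, and are shown because a member whose product binds this site carries it in its own promoter. The window of Max is chr12:76962219-76962318 (−), its E-box beginning at base −3 from the start; that of Mnt is chr11:74830754-74830853 (+), with the E-box at −123; and that of Mxd4 is chr5:34187861-34187960 (−), with the E-box at −219.
Max: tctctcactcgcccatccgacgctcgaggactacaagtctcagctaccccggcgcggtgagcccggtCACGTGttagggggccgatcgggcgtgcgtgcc
Mnt: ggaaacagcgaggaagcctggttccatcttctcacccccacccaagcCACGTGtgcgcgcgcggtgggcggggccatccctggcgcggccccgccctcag
Mxd4: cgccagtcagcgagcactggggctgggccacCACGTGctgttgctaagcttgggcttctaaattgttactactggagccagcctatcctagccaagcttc
Mxi1, the member with the largest rise common to both lines, has promoters at separate starts. The 100 bases before 2 of them, at chr19:53310406-53310505 (+) and chr19:53329313-53329412 (+), are shown for comparison with these. They hold neither motif, so nothing is in capitals. The labels upstream and downstream refer to these 2 starts only. A further Mxi1 promoter, at chr19:53329445-53329744 (+), overlaps that of the second start and is not shown.
Mxi1 upstream start: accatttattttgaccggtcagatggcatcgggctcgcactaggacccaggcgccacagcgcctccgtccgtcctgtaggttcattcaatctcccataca
Mxi1 downstream start: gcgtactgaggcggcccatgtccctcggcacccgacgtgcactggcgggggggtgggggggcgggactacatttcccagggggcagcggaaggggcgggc
A match of letters describes the sequence and does not show that a factor bound there in these cells. Among the 3 genes with an E-box, Mxd4 was upregulated in 1 line, and Max and Mnt were called in neither.

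Mxi1 encodes MXI1 (MAD2), an MXD repressor, on chr19:53310518-53375810 (+). Control showed 12.94 FPKM and the lines 36.78 in each of TR1 and TR9, from 361, 1032 and 946 counts. Both lines stood at the same level, far above control. Each line had a log2 ratio of 1.51, with an interval of 1.33 to 1.68 for TR1 and 1.33 to 1.69 for TR9, and Mxi1 was upregulated in both. Between the lines the ratio was 0 (−0.13 to 0.13). Of the genes above 3 counts, 6.77% had a larger ratio than Mxi1 in TR1 and 7.67% in TR9. The mean transcript length by which RSEM scaled Mxi1 was 5038, 4977 and 4963 bases in control, TR1 and TR9, and this mean follows the mix of transcripts assigned to the gene. Gm10197, a gene on the opposite strand, shares 194 of the 6823 exonic bases of Mxi1 in GENCODE, and reads from these bases cannot be assigned to a strand, since no strand setting is given in the sources used here.

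Mxd4 encodes MXD4 (MAD4), on chr5:34173883-34187720 (−). Its level was 10.83 FPKM in control, 19.46 in TR1 and 36.55 in TR9, from 70, 128 and 221 counts. The 3 libraries were stepped, with TR9 the highest. Mxd4 was upregulated in TR9 with a log2 ratio of 1.75 (1.36 to 2.16). In TR1 the ratio was 0.85 (0.41 to 1.29), short of the 2-fold limit as deposited and past it with TMM (1.09), median-of-ratios scaling (1.09) and upper-quartile scaling (1.06). TR9 was also set against TR1 directly, where the log2 ratio was 0.91 (0.59 to 1.23), with a false discovery rate of 1.03e-07 in the exact test but under the 2-fold limit. An antisense transcript, Gm42846, shares 514 of the 8483 exonic bases of Mxd4 in GENCODE, while the transcript length used in the deposited values was 1194 bases.

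Mxd1 encodes MXD1 (MAD1), the member classically tied to granulocytic differentiation, on chr6:86647042-86669161 (−). In control it had 8.56 FPKM, in TR1 18.99 and in TR9 14.53, from 221, 499 and 351 counts. Here TR1 was the highest library. The log2 ratio was 1.15 (0.92 to 1.38) in TR1, where Mxd1 was upregulated, and 0.76 (0.52 to 1.01) in TR9, where it was not called. TPM scaling took the TR1 ratio to 0.92, under the limit. TR9 against TR1 gave −0.39 (−0.59 to −0.19), with a false discovery rate of 0.00062 in the exact test and a size under 2-fold. Mxd1 was higher in TR1 than TR9 and Mxd4 was higher in TR9 than TR1, the opposite order. Granulocyte markers differed between the lines in both directions: of the 8 late markers 4 were lower in TR9 than in TR1, among them S100a8 and S100a9, which carried most of the summed FPKM in TR1, and 2, Camp and Ngp, were higher, and of the 4 primary granule markers 1 (Mpo) was lower. Their part in the difference in Mxd1 was not tested.

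Mxd3, which unlike the other MXD genes is known to be expressed in cycling cells, lies on chr13:55325168-55329823 (−). It was measured at 10.64 FPKM in control, 12.41 in TR1 and 12.13 in TR9, from only 75, 89 and 80 counts. No difference was detectable at this depth. The log2 ratio was 0.22 (−0.24 to 0.68) in TR1, 0.19 (−0.28 to 0.66) in TR9 and −0.03 (−0.49 to 0.42) between the lines, and with TPM scaling the sign turned in TR1 and between the lines. Prelid1, on the opposite strand, shares 105 of the 2369 exonic bases of Mxd3.

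Mnt and Mga, the remaining MAX partners of the network with repressor function, changed little. Mnt, which is broadly expressed and covers the same E-boxes as MYC, lies on chr11:74830920-74845725 (+) and had 9.31 FPKM in control, 9.45 in TR1 and 10.07 in TR9, from 237, 245 and 240 counts. Its log2 ratio was 0.02 (−0.24 to 0.29) in TR1, 0.11 (−0.15 to 0.38) in TR9 and 0.09 (−0.17 to 0.35) between the lines. These intervals leave out a 2-fold change in either direction, and the sign turned in TR1 with TPM scaling (−0.20) and between the lines with TMM (−0.05). Mga, on chr2:119897228-119969581 (+), had 17.4 FPKM in control, 16.17 in TR1 and 14.77 in TR9, from 1347.14, 1275.6 and 1071.65 expected counts, which are not whole because RSEM shared out a part of its reads among genes. Mga had a log2 ratio of −0.11 (−0.22 to 0.01) in TR1, of −0.24 (−0.35 to −0.12) in TR9 and −0.13 (−0.25 to −0.01) for TR9 against TR1. None was called, and in TR1 the sign of Mga turned under 4 other scalings (0.14 with TMM).

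Of the 10 members, then, 2 were upregulated in TR1 (Mxd1 and Mxi1), where 8.09% of 16282 genes were, and 1 was downregulated (Mycn), where 13% of genes were. In TR9 2 were upregulated (Mxd4 and Mxi1) beside 9.37% of 16303 genes, and 1 was downregulated (Mycn) beside 10.8%. In a group of 10 genes these counts are close to what the shares over all genes give, and they are read as a description of single members. Between the lines 0 of the 8 members listed were called in the exact Poisson test, where 4.34% of 15706 genes were higher in TR9 and 2.31% lower. The median log2 ratio of the 8 members with more than 3 counts in both libraries was 0.31 in TR1 and 0.22 in TR9, beside −0.24 and −0.08 over all genes of that kind, but this leaves out Mycn and Mycl, which were at 0 in both lines.

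**Figure D2:**
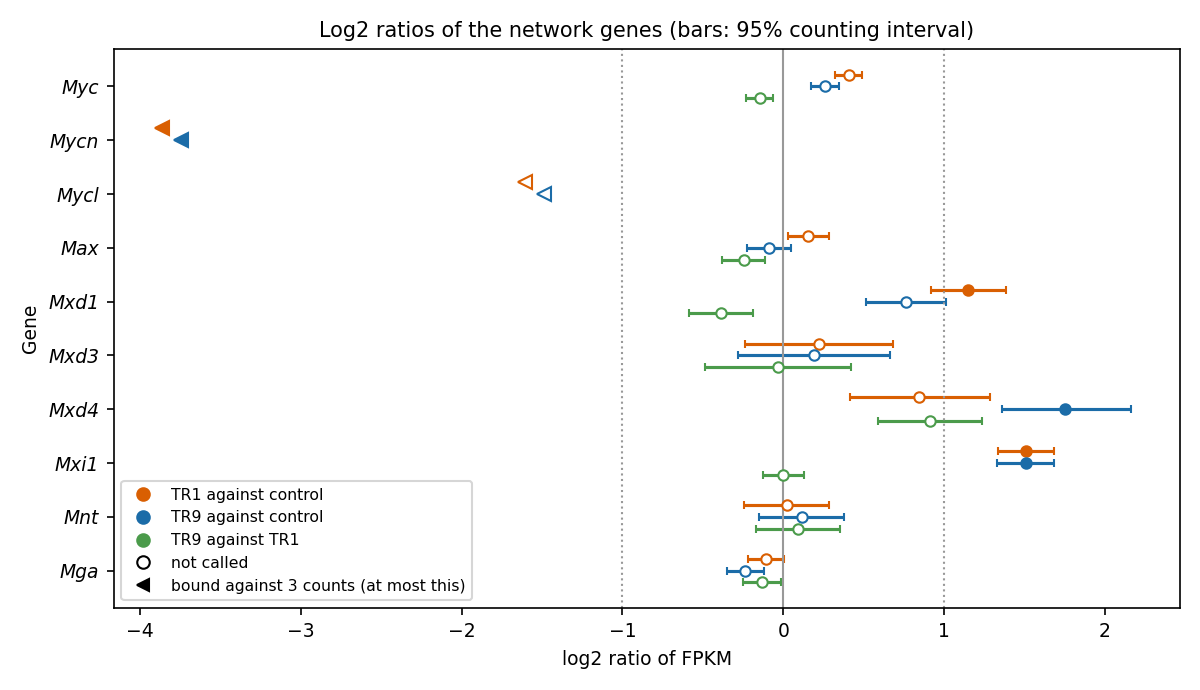
Log2 FPKM ratio of each network gene for TR1 against control, TR9 against control and TR9 against TR1, with 95% counting intervals. Filled symbols passed the false discovery rate and the 2-fold limit (dotted lines). Triangles are ratios against a floor of 3 counts and are not confidence limits. Mxi1 lies at 1.51 in both lines, Mxd1 is filled in TR1 alone and Mxd4 in TR9 alone, and Myc, Max, Mnt and Mga lie within the 2-fold limits.

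The order of levels within each library changed accordingly. In control, Myc was followed by Max, Mga and Mxi1, each apart from the next beyond counting error, and then by Mxd4, Mxd3, Mnt and Mxd1, whose neighbours did not differ beyond it, with Mycn and Mycl last; Mxi1 and Mxd4 were also not apart. In TR1 Mxi1 stood above Mga, in the third place, and Mxd4 and Mxd1, which were not apart from each other, also stood above Mga. In TR9 Mxi1 (36.78 FPKM) and Mxd4 (36.55) were not apart and shared the place below Max, while Mga, Mxd1, Mxd3 and Mnt followed with no neighbours apart.

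Summed by role, the MXD family differed more from control than the MYC family did. Control held 42.97 FPKM of MXD family RNA, against 87.64 for TR1 and 99.99 for TR9. Relative to control the MXD family was at 2.04-fold in TR1 and 2.33-fold in TR9, whereas the MYC family was at 1.30-fold and 1.17-fold. The ratio of MYC to MXD, taken within a library and so unaffected by library scaling, was 3.57 (3.23 to 3.95) in control, 2.27 (2.11 to 2.43) in TR1 and 1.79 (1.67 to 1.93) in TR9. None of the 3 intervals overlapped. The log2 of this ratio changed by −0.65 (−0.83 to −0.48) in TR1 and by −0.99 (−1.17 to −0.81) in TR9, and TR9 differed from TR1 by −0.34 (−0.48 to −0.19). The order held with summed counts in place of FPKM (2.79, 1.52 and 1.38), without Mxi1 (5.11, 3.91 and 2.84) and with Mnt and Mga added to the MXD side (2.20, 1.75 and 1.44), although the size moved. Mxi1 had 36.78 FPKM in both lines, so leaving it out could not test the step from TR1 to TR9. Of the MXD genes only Mxd4 was higher in TR9 than in TR1 (19.46 to 36.55 FPKM), so the larger MXD sum of TR9 rests on Mxd4. The ratio without Mxd4 was not computed.

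Relative to Max the summed RNAs of the MYC family and of the MXD family both increased. MYC family FPKM per FPKM of Max was 1.79 (1.65 to 1.93) in control, 2.08 (1.94 to 2.23) in TR1 and 2.23 (2.06 to 2.41) in TR9. The intervals of TR1 and TR9 overlapped, and those of control and TR1 nearly met. MXD family FPKM per FPKM of Max was 0.501 (0.448 to 0.560), 0.917 (0.844 to 0.997) and 1.24 (1.13 to 1.36). In TR9 the summed MXD FPKM thus exceeded that of Max, which in control was the larger. Of the 99.99 FPKM of MXD in TR9, Mxd4 held 36.55 and Mxi1 36.78. Max had 80.52, so the MXD sum would fall below it without either gene. The comparison uses length-scaled values and was not repeated with counts. As a share of all network FPKM, MYC was 49.7% in control, 48.8% in TR1 and 46.6% in TR9, MXD was 13.9%, 21.5% and 26.0%, and Max was 27.8%, 23.4% and 20.9%. Within the MXD family the composition also differed. Mxi1 held 30.1%, 42.0% and 36.8% of the family in control, TR1 and TR9, and Mxd4 held 25.2%, 22.2% and 36.6%. The share of Mxd3 was 24.8%, 14.2% and 12.1%, and that of Mxd1 was 19.9%, 21.7% and 14.5%. These sums compare RNA and say nothing of the amount of each protein.

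**Figure D3:**
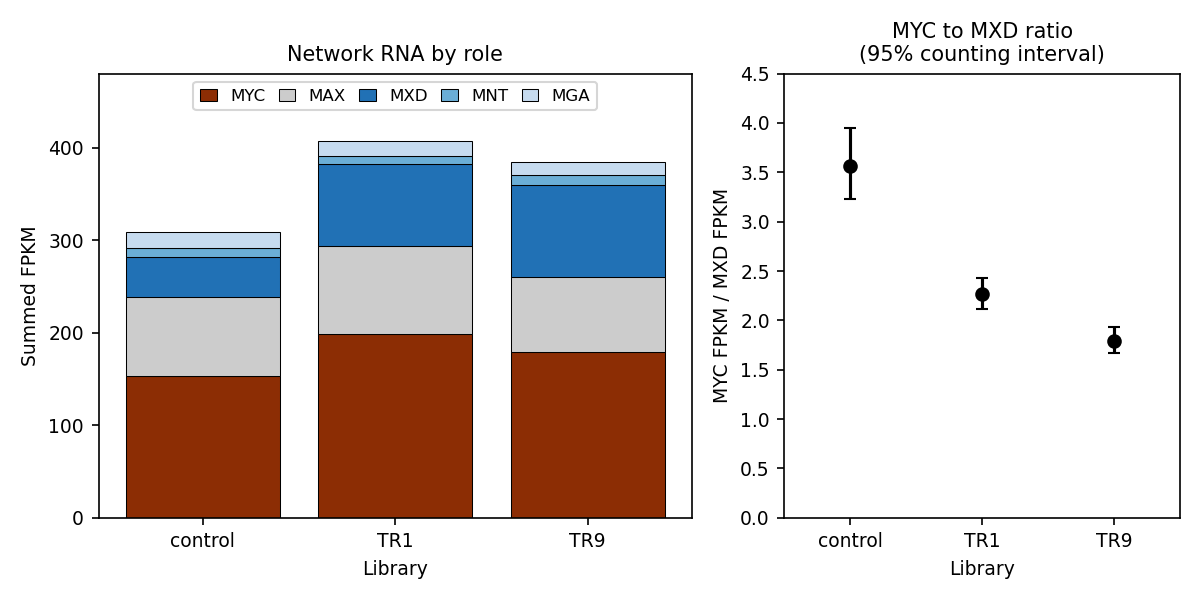
Left, summed FPKM of the network in each library, stacked by role from MYC at the bottom to MGA at the top; right, the ratio of summed MYC FPKM to summed MXD FPKM with its 95% counting interval. The MXD segment grows from 42.97 to 87.64 and 99.99 FPKM, and the ratio steps down from 3.57 to 2.27 and 1.79.

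The scaling of the libraries bears on every single-gene ratio. The median log2 ratio over all genes tested was −0.29 in TR1 and −0.12 in TR9, and TMM, which sets the bulk of genes level, added 0.25 to each ratio in TR1 and 0.11 in TR9, whereas TPM scaling added −0.23 and −0.11. The share of called genes that were downregulated went from 61.7% to 48.5% with TMM and 73.3% with TPM scaling in TR1, and from 53.6% to 46.6% and 60.1% in TR9. For Myc the range over all alternatives was 0.18 to 0.66 in TR1 and 0.15 to 0.37 in TR9. Mxi1 ranged from 1.28 to 1.76 in TR1 and from 1.40 to 1.61 in TR9, and Mxd4 from 1.65 to 1.86 in TR9, so their direction and their place past 2-fold did not turn on the scaling. An assumed spread between mice did end these calls. With a biological coefficient of variation of 0.2 in edgeR's exact test, the false discovery rate was 0.00398 for Mxi1 and 0.0418 for Mxd1 in TR1, and 0.0045 for Mxi1 and 0.00175 for Mxd4 in TR9, each above 0.001, while Mycn kept its calls.

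**Figure D4:**
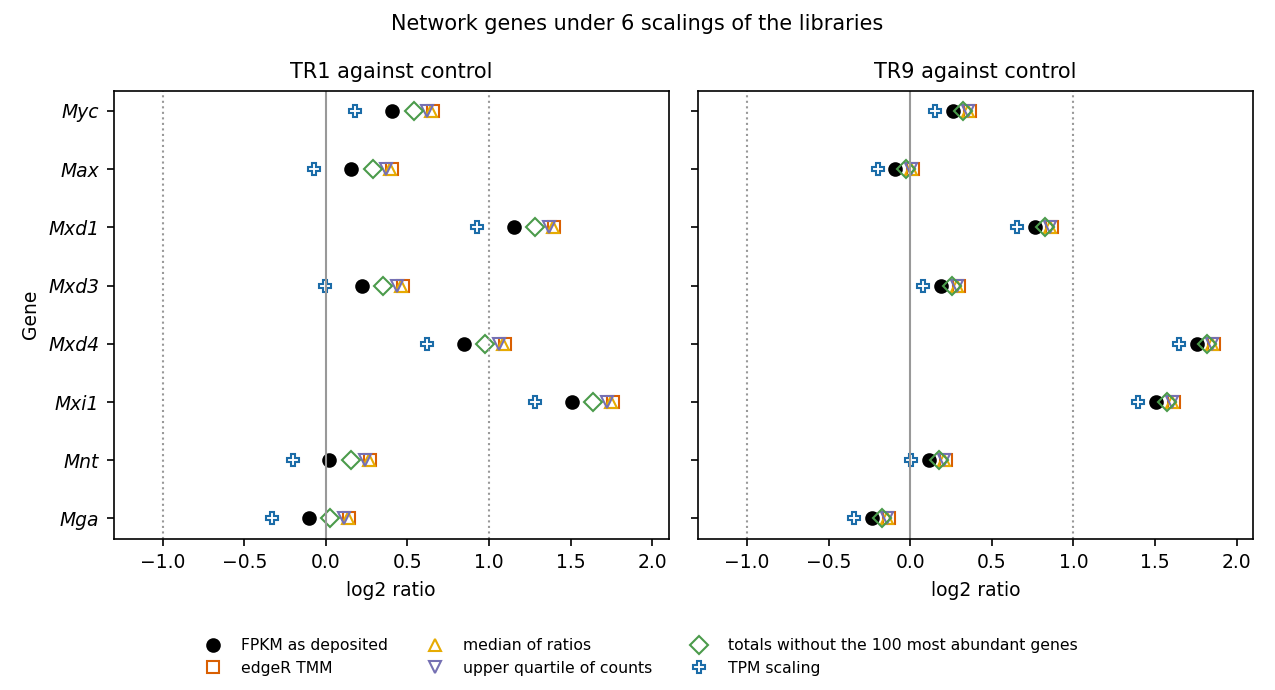
Log2 ratio against control of the 8 members with more than 3 counts in all libraries, as deposited and under other scalings of the libraries, for TR1 (left) and TR9 (right); dotted lines mark 2-fold. Each scaling moves all genes of a library by the same amount, so Max, Mnt, Mxd3 and Mga cross 0 in TR1 under some scalings, while Mxi1 remains beyond 2-fold throughout.

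The genes whose division over the 3 libraries was nearest to that of Myc, by Euclidean distance of the shares of their summed FPKM among 9686 genes with at least 5 FPKM in a library, were Lrmp, Recql5 and Dtymk. Lrmp had 33.85 FPKM in control, 45.09 in TR1 and 40.8 in TR9, Recql5 had 7.1, 9.5 and 8.55, and Dtymk, the thymidylate kinase, had 81.04, 107.42 and 98.19. With 3 libraries a close match is easily found: 18 genes lay within a distance of 0.01.

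Around the network, the parallel MLX branch, which pairs with MXD1, MXD4 and MNT as well as with the glucose-sensing factors MLXIP (MondoA) and MLXIPL (ChREBP), was listed with 3 genes. In TR1 0 of 3 were called, with a median log2 ratio of 0.63, and in TR9 2 were upregulated, beside 9.37% of all genes, with a median of 1.44; both are named here after their values were seen. Mlx, the partner itself, had 24.17 FPKM in control, against 37.47 for TR1 and 65.68 for TR9. It stepped up in the same order as Mxd4. Its log2 ratio was 0.63 (0.40 to 0.87) in TR1, 1.44 (1.23 to 1.66) in TR9, where it was upregulated, and 0.81 (0.63 to 0.99) between the lines. Mlxipl, at 2, 6 and 40 counts, was the other gene upregulated in TR9, 14.3-fold against a floor of 3 counts. Mlxip stayed near its control level at 13.86, 15.06 and 14.89 FPKM.

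The cofactors showed few calls. The SIN3 corepressor, through which MXD proteins and MNT repress, was listed with 17 genes. In TR1 1 (5.88%) was upregulated and 1 (5.88%) downregulated by the exact Poisson test, beside 8.09% and 13% of all genes. In TR9 0 were called, where 9.37% of all genes were upregulated and 10.8% downregulated. The SIN3 medians of the log2 ratio were −0.30 (TR1) and −0.08 (TR9), close to the medians over all genes. In TR9 this median turned to 0.03 with TMM and to 0.02 with either median-of-ratios or upper-quartile scaling. The scaffold Sin3a had 36.03, 29.93 and 32.23 FPKM and Sin3b had 41.82, 37.16 and 50.83 in control, TR1 and TR9, neither called; the calls in TR1 were Sap30 (log2 ratio 1.22) and Brms1l (−1.01), and these 4 genes are named after their values were seen. Of 17 MYC coactivators 1 (5.88%) was downregulated in TR1 and 2 (11.8%) in TR9, beside 13% and 10.8% of all genes, with medians of −0.31 and −0.15. The gene called in both lines was Ruvbl1, an ATPase of the TIP60 and INO80 complexes, at 98.94 FPKM in control, 43.97 in TR1 and 44.43 in TR9, log2 ratios of −1.17 and −1.16, and with TMM its TR1 ratio was −0.92 and its call ended. The 10 PRC1.6 genes beside Mga had 2 (20%) downregulated in TR1 and 1 (10%) in TR9, beside 13% and 10.8% of all genes. Their medians were −0.36 and −0.19, and no gene was called in both.

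Genes that control the stability of MYC protein had a median of −0.45 in each line, and 3 of 16 were downregulated in both, 18.8% beside 13% and 10.8% of all genes. These were Skp2, an F-box protein that ubiquitinates MYC, with 16.92, 7.96 and 7.59 FPKM in control, TR1 and TR9; Aurka, a mitotic kinase that protects N-MYC from degradation, with 49.29, 22.23 and 20.91; and Plk1, a mitotic kinase, with 84.28, 35.1 and 37.21. All 3 are also genes of the cell cycle. Their log2 ratios lay between −1.09 and −1.26, and with TMM the TR1 calls of Skp2 (−0.84) and Aurka (−0.90) ended, leaving 1 of 16 in TR1 and 3 in TR9. Fbxw7, the F-box protein best known for MYC turnover and named after its values were seen, had 5.39, 3.44 and 3.28 FPKM and was called in neither line.

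Few known targets of MYC were upregulated. Of 25 target genes of ribosome biogenesis, 0 were upregulated in either line by the exact Poisson test, beside 8.09% (TR1) and 9.37% (TR9) of all genes. Downregulated were 2 (8%) in TR1 and 6 (24%) in TR9, beside 13% and 10.8% of all genes. Median log2 ratios were −0.47 (TR1) and −0.82 (TR9), and 23 and 24 of the 25 were below 0. The gene downregulated in both lines was Nop58, a core protein of box C/D snoRNPs, at 199.66 FPKM in control, 77.7 in TR1 and 97.15 in TR9. With TMM its TR9 ratio went from −1.04 to −0.93 and the call ended. The list then had 1 downregulated in TR1 and 4 in TR9, and with TPM scaling 4 and 11. Between the lines the median was −0.45, with 23 of 25 lower in TR9 and 0 called in the exact Poisson test, beside a median of 0.13 over all genes.

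The metabolic targets showed the same direction. Of 27 genes, mostly of nucleotide, one-carbon and amino acid metabolism, translation initiation and mitochondrial proteins, 0 were upregulated by the exact Poisson test. Over all genes 8.09% (TR1) and 9.37% (TR9) were upregulated. Downregulated were 3 (11.1%) in TR1 and 13 (48.1%) in TR9, again beside 13% and 10.8% of all genes. These counts depended on the scaling, at 0 and 8 with TMM and 9 and 15 with TPM scaling. The medians were −0.63 and −0.97, below those of all genes. Downregulated in both lines were Cad, the enzyme that begins pyrimidine synthesis, at 50.2 FPKM in control, 22.57 in TR1 and 18.29 in TR9; Ppat, which begins purine synthesis, at 51.08, 21.63 and 22.28; and Hspd1, the mitochondrial chaperonin, at 367.01, 167.86 and 138.74. Hspd1 had log2 ratios of −1.13 (−1.20 to −1.06) in TR1 and −1.40 (−1.48 to −1.32) in TR9. With TMM the TR1 calls of all 3 ended, at −0.90 for Cad, −0.99 for Ppat and −0.88 for Hspd1. The TR1 medians of both lists were sensitive to scaling, at −0.22 and −0.38 with TMM and −0.70 and −0.85 with TPM scaling, and stayed below 0 in each. The summed FPKM of erythroid markers fell in the same libraries, and its part in the lower level of these targets was not tested.

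Cell cycle targets of MYC held larger single changes. Of 13, 1 was upregulated and 3 were downregulated in each line, the same 4 genes in both; that is 7.69% upregulated and 23.1% downregulated, beside 8.09% and 13% of all genes in TR1 and 9.37% and 10.8% in TR9. The medians were −0.51 and −0.41. Ccne1 (cyclin E1) had 48.1 FPKM in control, 5.76 in TR1 and 4.24 in TR9, log2 ratios of −3.06 and −3.50, and Ccnd2 (cyclin D2) had 26.31, 4.24 and 2.34, log2 ratios of −2.63 and −3.49. Id2, an inhibitor of bHLH factors, was the gene that rose, from 3.86 FPKM in control to 46.66 in TR1 and 15.44 in TR9. TR1 had a log2 ratio of 3.60 (3.03 to 4.22) and TR9 one of 2.0 (1.38 to 2.67), and TR9 was lower than TR1 by −1.60 (−1.93 to −1.27), a called difference.

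Genes that MYC is known to repress were split. Of 11, 2 were upregulated and 2 downregulated in TR1, and 4 upregulated and 1 downregulated in TR9, in percent 18.2% up and 18.2% down in TR1 and 36.4% and 9.09% in TR9, beside 8.09%, 13%, 9.37% and 10.8% of all genes. The medians of 0.22 and 0.07 turned to −0.01 and −0.04 with TPM scaling. Gadd45b, a stress-response gene, had 8.47 FPKM in control, 90.89 in TR1 and 71.54 in TR9, log2 ratios of 3.42 and 3.08, and its relative Gadd45g had 7.2, 21.74 and 14.48, log2 ratios of 1.59 and 1.01. Both rose in both lines, though with TPM scaling Gadd45g was at 0.90 in TR9, under the limit. Their relative Gadd45a, named after its values were seen, went the other way, at 19.92, 7.71 and 12.25 FPKM. It was downregulated in TR1 (log2 ratio −1.37) and not called in TR9 (−0.70). Thbs1 (thrombospondin 1), a protein stored in platelets, went from 67.49 FPKM to 3.12 in TR1 and 2.82 in TR9, log2 ratios of −4.44 and −4.58. The megakaryocyte markers fell in the same libraries, as did 4 of 5 stroma markers. The part of either in the fall of Thbs1 was not tested. Cdkn1a (p21), named after its values were seen, had 4.5, 6.2 and 14.72 FPKM in control, TR1 and TR9 and was upregulated in TR9, with a log2 ratio of 1.71 (1.23 to 2.22).

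**Figure D5:**
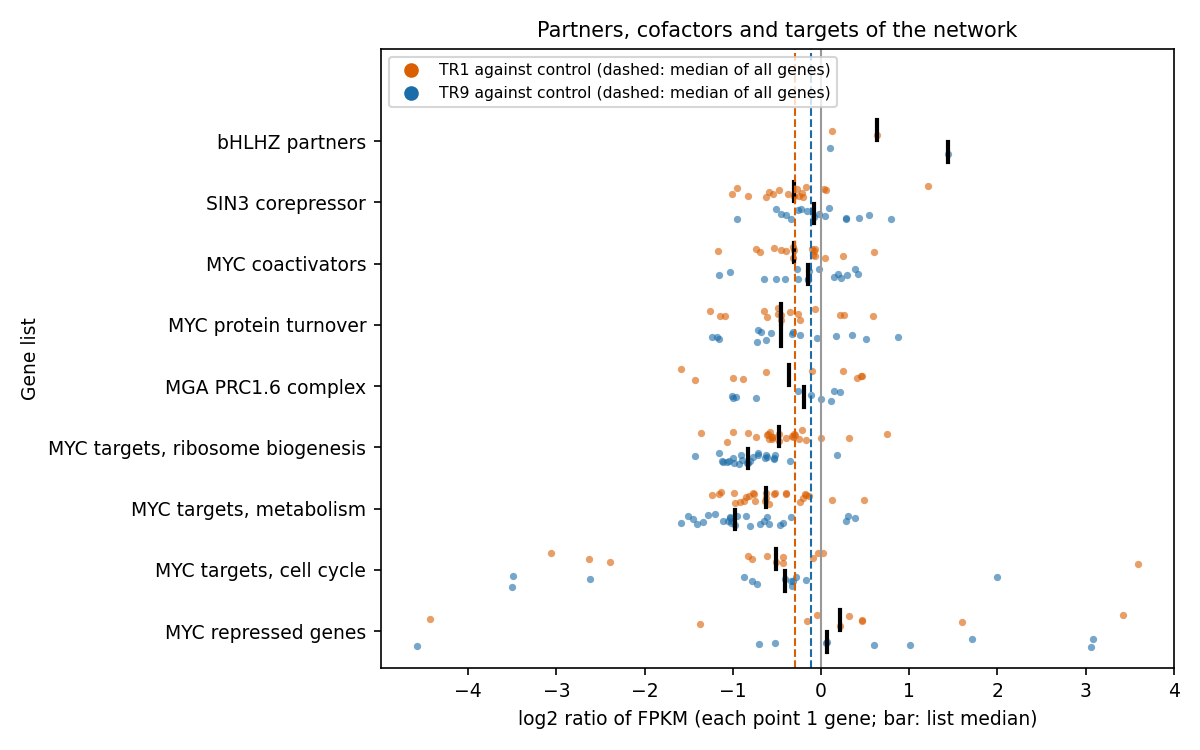
Log2 FPKM ratio of each gene of the partner, cofactor and target lists against control, TR1 above and TR9 below in each row, with black bars for list medians and dashed lines for the medians over all genes (−0.29 and −0.12). Genes with 3 counts or fewer in a compared library (Mlxipl and Cdkn2b) are not drawn; the ribosome biogenesis and metabolic targets of MYC lie mostly below 0, further in TR9 than in TR1.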

How the data were processed

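The 3 libraries were prepared from total RNA and sequenced on an Illumina instrument. The authors aligned filtered reads by BWA and Bowtie, and RSEM gave the level of each gene; versions and the annotation are not given in the sources used here, and the submitters' processing notes list the build mm9. The authors deposited for each gene an expected count (an estimate by RSEM, not always whole, with no normalization), the FPKM scaled for length and library total, and the transcript length, another deposited column that was used only to compare levels between genes and to describe members. Genes are listed by NCBI Gene ID, of which 16698 of 16742 were matched to a symbol. Gene coordinates were taken from GENCODE M21 (GRCm38) and are not those of the authors' build.

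Members and lists were chosen with earlier results of these data known. Rounded expected counts of 2 libraries were tested by the conditional exact form of the Poisson test in scipy 1.17.1, library totals serving as exposure, with Benjamini-Hochberg adjustment over all genes listed in either library. FPKM under 0.01 were set to 0.01 for log2 ratios. A gene was called where its false discovery rate did not exceed 0.001 and its log2 ratio was 1 or more in size, as in the study's methods. The quasi-likelihood fit of edgeR could not be fitted with 1 library per group, which leaves no residual degrees of freedom. Single-gene intervals are exact (Clopper-Pearson), and those of family ratios are approximate intervals from Poisson variances; both are 95% and cover counting error only. Folds against 3 counts or fewer used a floor of 3 counts, 0.538 to 0.585 ppm of a library. Over single genes the text names all members, up to 3 genes of each list called in the same direction in both lines with the largest mean absolute log2 ratio, the 3 genes nearest Myc, and the markers at 0 or highest; other genes are said to be chosen after their values were seen. Alternatives were other scalings (TMM from edgeR 4.0.16 in R 4.3.3, median of ratios, upper quartile, TPM scaling, totals without the 100 most abundant genes, CPM), floors, filters, tests and thresholds. The steps were tested on simulated data. Tables were handled with pandas 2.3.3 and numpy 2.4.6 under Python 3.11.15, and plots drawn by matplotlib 3.10.9.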

Additional observations from a re-analysis of the deposited data

Results flagged for a closer look

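TR9 was compared directly with TR1 in the exact Poisson test. Of the network members, 2 passed a false discovery rate of 0.001, and neither difference reached 2-fold. Mxd1 was lower in TR9, with a log2 ratio of −0.39 (−0.59 to −0.19) and a false discovery rate of 0.00062. Mxd4 was higher in TR9, with a log2 ratio of 0.91 (0.59 to 1.23) and a false discovery rate of 1.03e-07. In the partner, cofactor and target lists, 5 genes passed both the false discovery rate and 2-fold; those other than Id2 are named after their values were seen, and list genes that passed the rate alone are not given here. Id2 was lower in TR9 by a log2 ratio of −1.60 (−1.93 to −1.27). Higher in TR9 were Mlxipl at 2.87 (1.62 to 4.40), Ndrg2 at 2.75 (2.28 to 3.25), the SIN3 component gene Sap30l at 1.42 (0.85 to 2.01) and Cdkn1a at 1.25 (0.82 to 1.69). Each line is 1 pooled library, so a difference between lines and a difference between pools of mice cannot be told apart.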

How the results depend on the processing

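No paired analysis was possible because each group has 1 library, and for the same reason no replicate could be left out. Of the member ratios recomputed under an alternative, 382 kept their direction and side of the threshold, 14 changed sign, 14 lost a call and 6 gained one. Signs that turned were those of Mga in TR1 (0.14 with TMM, 0.13 with the median of ratios, 0.11 with the upper quartile, 0.025 without the 100 most abundant genes), of Max (−0.070), Mxd3 (−0.0033) and Mnt (−0.20) in TR1 with TPM scaling, of Max in TR9 (0.016, 0.0042 and 0.0052 with TMM, median of ratios and upper quartile), and, for TR9 against TR1, of Mnt (−0.050, −0.053 and −0.028 with the same scalings) and Mxd3 (0.083 with TPM scaling); the scalings shift all ratios of a library together. Members called went from 3 to 1 in TR1 and in TR9 with an assumed coefficient of variation of 0.2 or a log2 limit of 2, to 1 and 0 with a coefficient of 0.4, and from 0 to 1 between the lines with TPM scaling (Mxd4, 1.03). A false discovery rate of 0.05 added Mycl in both lines. Genes called in TR1, TR9 and between the lines numbered 1649, 1547 and 282 with a coefficient of 0.2, 517, 448 and 15 with 0.4, and 1818, 1666 and 418 with a log2 limit of 2. List medians in TR1 moved for the SIN3 genes (−0.055, −0.065 and −0.089 with TMM, median of ratios and upper quartile, −0.17 without the 100 most abundant genes), the coactivators (−0.060, −0.070, and −0.53 with TPM scaling), the turnover genes (−0.68 with TPM scaling), ribosome biogenesis (−0.22, −0.23, −0.26 and −0.70) and metabolism (−0.38, −0.39 and −0.85). In TR9 the SIN3 median turned to 0.031, 0.019 and 0.020, and the median of repressed genes turned to −0.0084 in TR1 and −0.041 in TR9 with TPM scaling. The MYC to MXD ratio in control, TR1 and TR9 was 2.79, 1.52 and 1.38 from counts, 5.11, 3.91 and 2.84 without Mxi1, and 2.20, 1.75 and 1.44 with Mnt and Mga added. It was not computed without Mxd4, the only MXD gene higher in TR9 than in TR1. Mycl and Mlxipl rest on few counts.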
